A study of Mus musculus with 8 samples.

Results

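*Trpm6*, *Trpm7*, *Trpm2*, *Trpm4*, *Trpv2* and *Magt1* are 6 genes for cation channels and a magnesium transporter, and their RNA was measured in CD8+ T cells from tumors with and without the histone demethylase LSD1. They were taken by symbol from a count file of 55335 mouse genes, and were chosen with their difference between the groups already known, so their levels and fold changes are a description and carry no test. All 6 had enough counts to enter the fit across 15378 genes.

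The cells were tumor-infiltrating lymphocytes (TILs), sorted as CD45.2+TCRβ+CD8+ cells with CD44 and PD-1 on their surface from subcutaneous MC38 tumors, a mouse colon carcinoma line, in C57BL/6 mice. The wildtype (WT) group is *Lsd1* f/f littermates, which carry the floxed gene without Cre, and the knockout (KO) group is *Cd4-Cre*+ *Lsd1* f/f mice, with 4 samples each. *Cd4-Cre* acts in developing T cells, so CD4+ T cells of the KO hosts lack LSD1 as well. A WT sample pools the cells of 2 mice and a KO sample comes from 1 mouse, so pooling and genotype cannot be told apart. The methods give mice of 6 to 10 weeks and harvest on day 18, while the series design gives 14 days, and each sample held 10000 to 20000 sorted cells. Directional libraries were made after removal of ribosomal RNA. The WT samples carry the names S1 to S4 and the KO samples S5 to S8.

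TRPM6 and TRPM7 are close relatives that pass magnesium and calcium through the membrane and carry a protein kinase at the end of the same chain. TRPM6 is best known from the distal convoluted tubule of the kidney and from the intestine, where it takes up magnesium, whereas TRPM7 is made by almost every cell and is needed for thymocyte development. TRPM2 is a calcium channel opened by ADP-ribose, TRPM4 lets sodium in when calcium rises, TRPV2 is a calcium-permeable channel of leukocytes, and MAGT1 is linked to magnesium transport and to protein N-glycosylation, its loss causing a T cell deficiency in people.

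The 8 libraries held 11657807 to 30295406 counts on genes. Values are counts scaled to a common library size (CPM) after TMM scaling unless stated otherwise, and 3 counts, the limit that a count of 0 allows, stand for 0.106 to 0.25 CPM. *Kdm1a*, which encodes LSD1, averaged 44.9 CPM over the WT samples (SD 1.87, n = 4) and 30.7 CPM over the KO samples (SD 4.03, n = 4), a log2 fold change of -0.55 (SE 0.14) with an adjusted p of 0.0163 from edgeR's quasi-likelihood test, which passed neither threshold used here. These counts cover the whole gene and do not set its floxed part apart, so they do not measure how much LSD1 is left. By flow cytometry, the paper reports a noticeable loss of LSD1 protein from the CD4 or CD8 single-positive stage on. The 9 T cell markers summed to 5439 to 5868 CPM in WT and 5124 to 5713 CPM in KO samples, and 1 of them was called, *Cd44*, a gene of the sort, at 399 to 488 CPM in WT and 670 to 952 CPM in KO samples (log2 fold change 0.86, SE 0.12, edgeR adjusted p = 0.000107). *Cd3g* and *Cd8b1* were lower in every KO than in any WT sample (log2 fold changes -0.36 and -0.39) and were not called. Of 17 myeloid markers, 16 were tested and 13 were called lower in KO (among them *Adgre1*, *Csf1r*, *Lyz2*, *C1qa* and *Apoe*), and the sum of the 17 was 477 to 1452 CPM in WT and 236 to 334 CPM in KO samples. None was at 0 in all samples. Of 4 markers of CD4 T cells, *Zbtb7b* and *Cd40lg* were called higher in KO, and the sum of the list was 40.1 to 57.0 CPM in WT and 121 to 155 CPM in KO samples. In other marker lists the B cell gene *Ighm* was called lower (log2 fold change -1.497, SE 0.29, edgeR adjusted p = 0.00283) and the endothelial gene *Pecam1* higher (1.48, SE 0.15, edgeR adjusted p = 5.23e-06), while *Krt8* and *Krt19* of tumor epithelium and *Mcpt4* and *Fcer1a* of mast cells were at 0 throughout. The part of these shifts in the values below was not tested, and fewer cells of a type cannot be told apart from less RNA per cell.

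The sequences upstream of the related genes *Trpm6* and *Trpm7* are shown because the RNA of one was close to absent in WT cells while that of the other was present in every sample. Each is the RefSeq window from 250 bases before to 50 bases after the annotated start, 5′ to 3′ on the strand of the gene in GRCm38.p6, with CpG dinucleotides in capitals. *Trpm6* lies on the plus strand (chr19:18749480-18749779) and *Trpm7* on the minus strand (chr2:126876212-126876511).
Trpm6: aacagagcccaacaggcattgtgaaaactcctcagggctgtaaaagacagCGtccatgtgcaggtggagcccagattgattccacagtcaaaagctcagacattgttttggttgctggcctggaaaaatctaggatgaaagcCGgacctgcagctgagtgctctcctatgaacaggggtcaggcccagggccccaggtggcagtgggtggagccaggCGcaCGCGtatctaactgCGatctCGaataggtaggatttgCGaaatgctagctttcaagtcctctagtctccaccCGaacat
Trpm7: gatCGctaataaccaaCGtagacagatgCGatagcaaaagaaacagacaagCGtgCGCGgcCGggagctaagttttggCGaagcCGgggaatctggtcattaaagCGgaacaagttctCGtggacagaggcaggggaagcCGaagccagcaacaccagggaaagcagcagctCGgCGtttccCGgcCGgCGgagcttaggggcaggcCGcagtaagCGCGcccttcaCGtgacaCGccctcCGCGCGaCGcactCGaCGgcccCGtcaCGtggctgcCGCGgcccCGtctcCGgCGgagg
The *Trpm6* window held 9 CpG and 53% G or C, and the *Trpm7* window held 35 CpG and 63.7% G or C. Over 32851 mouse promoter windows of 300 bases the median was 7 CpG, and 54.2% of windows had fewer CpG than *Trpm6*, against 93.1% for *Trpm7*. A search of both strands for the core letters CTTTGAT or CTTTGAA of TCF/LEF factors, found in 8.65% of all windows, gave no match in either gene. The same held for AAATCAC of GFI1 factors (3.20% of windows), TGTGGT of RUNX factors (16.8%) and TGAGTCA or TGACTCA of AP-1 (5.202%). The RefSeq start of *Trpm6* lies 253 bases before the first base that GENCODE gives the gene, so its window ends before that base. Sequence outside the windows was not searched. Most windows lack each of these motifs, and binding of the factors was not tested.

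*Trpm6* (ENSMUSG00000024727.9) covers 142.5 kb of chromosome 19 (chr19:18749983-18892511). The WT samples S1 to S4 had 0, 24, 6 and 57 counts on it, and the KO samples S5 to S8 had 2695, 1718, 1846 and 3891. The groups were far apart, and in S1 not a single read fell on the gene. In CPM the WT samples were at 0, 1.31, 0.49 and 4.70, and the KO samples at 177, 139, 154 and 137. The lowest KO sample was therefore above every WT sample, and S4 held most of the WT signal. The fitted log2 fold change was 6.65 (SE 0.49), or 100.4-fold higher in KO, and only 8 of the 15378 genes had a higher one, which places *Trpm6* at rank 9. Without S4 the log2 fold change was 7.91, and without S1 it was 6.18. The mean level of *Trpm6* in WT samples was above that of 13.9% of the tested genes, and its mean in KO samples was above that of 92.2%. It was the only tested gene under 5 CPM in every WT sample and over 100 CPM in every KO sample, a cut set after its values were seen. With a floor of 50 CPM in KO samples, *Anxa1* was the only other such gene.

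*Trpm6* shares no read-length sequence with other annotated transcripts. Of 7713 windows of 42 bases in its transcripts, the length of the shorter read, 0 occurred in a transcript of another gene. The longest stretch it shares with a *Trpm7* transcript is 23 bases of coding sequence, shown because it is shorter than a read.
Shared by Trpm6 and Trpm7: catgattttgaagagcagtgtgt
The stretch lies in exon 25 of both genes, at chr19:18838008-18838030 on the plus strand for *Trpm6* and at chr2:126814763-126814785 on the minus strand for *Trpm7*. The annotated gene inside the span of *Trpm6*, *Gm24190* on the opposite strand, had 0 counts in the 8 samples and shares no exon with it.

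Most genes listed for the distal tubule of the kidney were silent or too low for the filter. Of 14 genes of the distal tubule, 5 had no count in any sample, namely *Pvalb*, *Pcbd1*, *Kcna1*, *Cldn16* and *Umod*, and 3 passed the filter. *Wnk1*, a kinase that most cells make, was at 1256 to 1296 CPM in WT and 1385 to 1408 CPM in KO samples (log2 fold change 0.13, SE 0.076, adjusted p = 0.302 from edgeR). *Stk39*, the kinase that acts below it, was at 84.9 to 88.4 CPM in WT and 54.3 to 62.0 CPM in KO samples (log2 fold change -0.58, SE 0.10), which passed the adjusted p threshold of 0.01 in edgeR (0.00152) and fell just short of a fold of 1.5. *Slc12a3*, the salt transporter that defines the distal convoluted tubule, was at 1.32 to 3.31 CPM in WT and at most 0.727 CPM in KO samples (log2 fold change -2.11, SE 0.93, edgeR adjusted p = 0.17).

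*Trpm7* (ENSMUSG00000027365.14, chr2:126791565-126876230, minus strand) was at 138, 127, 136 and 119 CPM in S1 to S4 and at 161, 159, 148 and 163 CPM in S5 to S8. Each KO sample lay above every WT sample, by a step that was small beside that of *Trpm6*. The log2 fold change was 0.28 (SE 0.094), or 1.21-fold, and with offsets for GC content and length it was 0.18. Of 11465 windows of its transcripts, 3 also occur in another gene.

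Levels of different genes were compared per kilobase of exon (RPKM), since longer genes gather more reads. In WT samples *Trpm6* was at 0, 0.169, 0.0634 and 0.609 RPKM and *Trpm7* at 12.2, 11.2, 11.98 and 10.5 RPKM. In KO samples *Trpm6* was at 22.9, 18.0, 19.96 and 17.7 RPKM and *Trpm7* at 14.2, 14.1, 13.04 and 14.4 RPKM. *Trpm6* was thus at most 0.058 of the *Trpm7* level in a WT sample and 1.23 to 1.61 times the *Trpm7* level in the KO samples. The order of the pair in KO samples rests on the length used: over the longest annotated transcript of each gene, an alternative chosen after seeing the data, the ratio was 0.917 to 1.2, and *Trpm6* was below *Trpm7* in S6 and S8. The summed RPKM of both genes ran from 11.1 to 12.2 over the WT samples and from 32.1 to 37.2 over the KO samples. Over all 28 TRP channel genes the sum was 36.9 to 42.4 RPKM in WT and 76.4 to 88.8 RPKM in KO samples, of which *Trpm6* made up at most 1.56% in WT and 22.95% to 25.8% in KO. Without *Trpm6*, the summed level of the family was 36.7 to 42.4 RPKM in WT and 58.7 to 65.9 RPKM in KO samples.

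*Trpv2* (ENSMUSG00000018507.16, chr11:62574486-62600515) was at 102, 84.4, 86.6 and 91.7 CPM in S1 to S4 and at 156, 145, 171 and 140 CPM in S5 to S8. The groups did not overlap, and every KO sample was above the highest WT sample. The log2 fold change was 0.75 (SE 0.10), or 1.68-fold, and lay between 0.69 and 0.81 when any single sample was left out. With the myeloid marker score of each sample as a covariate it was 0.52 and no longer past the thresholds. The score of the WT samples did not overlap that of the KO samples, so it and genotype cannot be told apart. This limit holds for every value with that covariate below. In WT samples *Trpv2* had the highest level per length of the 6 genes, at 18.8 to 22.7 RPKM, and in KO samples it stayed above *Trpm6*, at 31.1 to 38.2 RPKM.

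*Trpm4* (ENSMUSG00000038260.10, chr7:45302632-45333780, minus strand) was at 6.10, 7.41, 11.3 and 11.8 CPM in S1 to S4 and at 22.98, 15.1, 14.3 and 14.7 CPM in S5 to S8. Again the groups did not overlap, and S5 stood above the other KO samples. The log2 fold change was 0.88 (SE 0.26), or 1.84-fold, and without S5 it was 0.69. With the myeloid score as a covariate it was 2.14 and not past the thresholds, whereas without the covariate it was past them once the limit on the adjusted p was set at 0.05. The pseudogene *Rpl14-ps1* lies inside an intron of *Trpm4* on the opposite strand and had 37748 counts over the 8 samples against 1650 for *Trpm4*. No base of its exon is shared with an exon of *Trpm4*.

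*Trpm2* (ENSMUSG00000009292.18, chr10:77907722-77970563, minus strand) was at 7.21, 1.96, 10.6 and 0.91 CPM in S1 to S4 and at 1.44, 2.42, 1.84 and 1.55 CPM in S5 to S8. The WT samples spread widely, S1 and S3 being high and S2 and S4 within or below the KO range, and the groups overlapped. The log2 fold change was -1.51 (SE 0.62), and without S3 it was -0.90. *Trpm2* is also made by macrophages and neutrophils, and the summed myeloid markers were 477, 581, 1452 and 797 CPM in S1 to S4 and 324, 334, 236 and 237 CPM in S5 to S8. S3 was thus highest in both, while S1, the next in *Trpm2*, had the lowest myeloid sum of the WT samples. With the myeloid score as a covariate the log2 fold change of *Trpm2* was 0.10. As that score cannot be told apart from genotype, the myeloid part of the difference was not tested. Neutrophil markers summed to at most 6.12 CPM in any sample, with *S100a9*, *Cxcr2* and *Retnlg* at 0 in all.

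**Figure D1:**
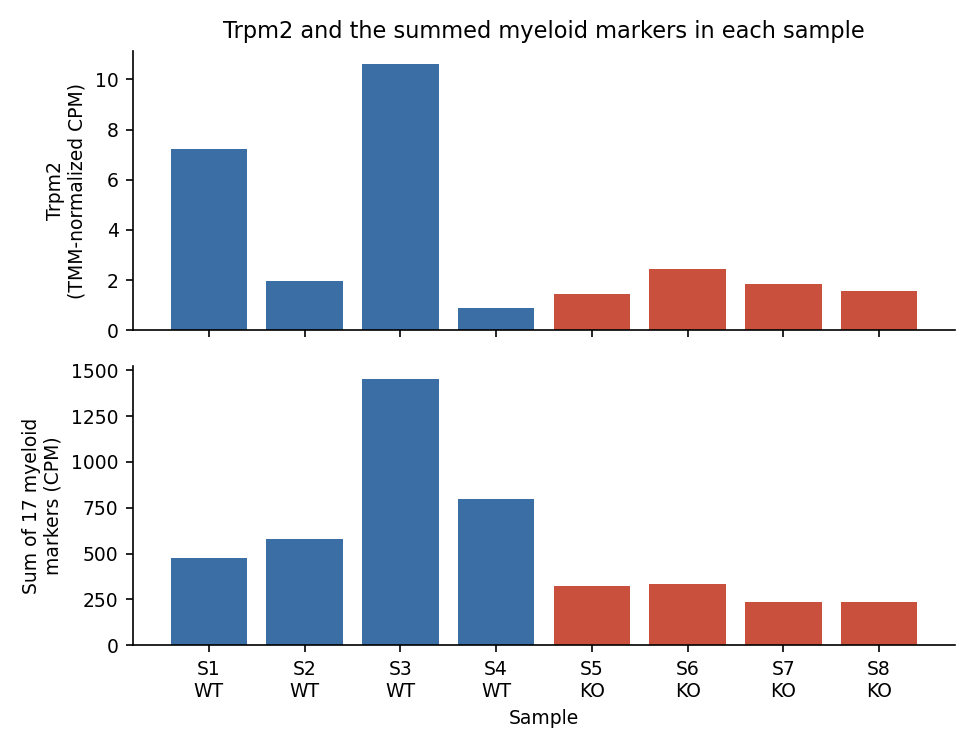
*Trpm2* (upper panel, TMM-normalized CPM) and the sum of the 17 myeloid markers (lower panel, CPM) in each WT (blue) and KO (red) sample, as bars from 0. S3 is highest in both panels, at 10.6 and 1452 CPM, while S1 has 7.21 CPM of *Trpm2* with a myeloid sum of 477 CPM.

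*Magt1* (ENSMUSG00000031232.17, chrX:105968084-106011906, minus strand) was at 43.2, 57.1, 63.5 and 56.5 CPM in S1 to S4 and at 56.3, 55.8, 53.9 and 47.0 CPM in S5 to S8. The ranges overlapped, with S1 lowest and S3 highest of all samples. The log2 fold change was -0.05 (SE 0.14), and its sign turned when S3 or S8 was left out (0.02 and 0.01). With the myeloid score as a covariate it was 0.62.

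**Figure D2:**
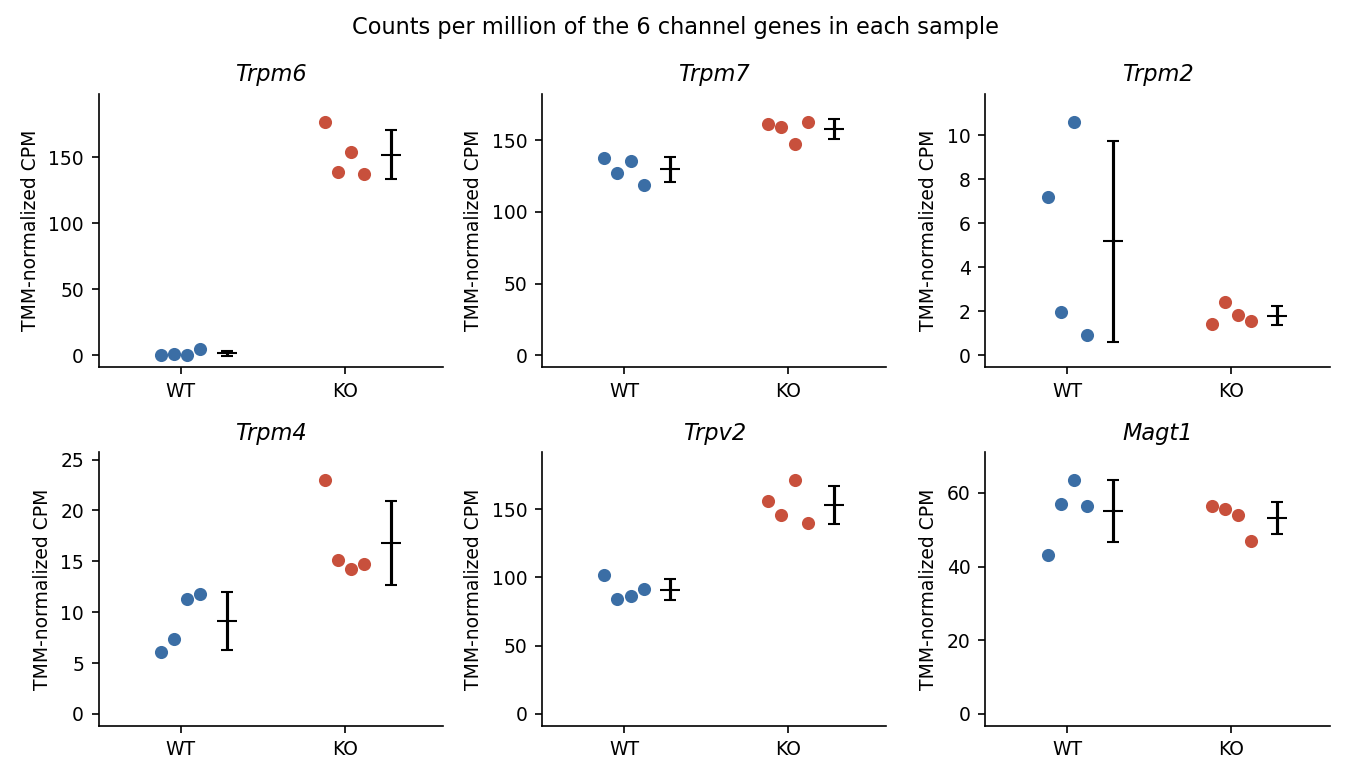
TMM-normalized CPM (vertical axis, from 0, a scale of its own for each gene) of the 6 genes in the 4 WT (blue) and 4 KO (red) samples, 1 point a sample, with the mean and SD in black. *Trpm6* is at 0 to 4.70 CPM in WT and 137 to 177 CPM in KO samples, and the groups overlap for *Trpm2* and *Magt1*.

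Of the 6 genes, *Trpm6* and *Trpv2* were past a fold of 1.5 and an adjusted p of 0.01 from edgeR, both higher in KO, where 2.91% of all 15378 genes were called higher and 1.99% lower. Groups did not overlap for 4 of the 6, against 17.3% of all genes. The genes were picked on this comparison, so these shares say nothing further about them. Their median log2 fold change was 0.51, beside -0.01 over all genes tested.

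By level per length, the order in WT samples was *Trpv2* (20.3 ± 1.71 RPKM, SD, n = 4), *Magt1* (11.8 ± 1.82), *Trpm7* (11.5 ± 0.76), *Trpm4* (0.846 ± 0.262), *Trpm2* (0.415 ± 0.365) and *Trpm6* (0.21 ± 0.275). *Magt1* and *Trpm7* overlapped in that order, as did the 3 lowest genes with their neighbours. In KO samples it was *Trpv2* (34.1 ± 3.11), *Trpm6* (19.7 ± 2.397), *Trpm7* (13.9 ± 0.613), *Magt1* (11.4 ± 0.92), *Trpm4* (1.55 ± 0.383) and *Trpm2* (0.145 ± 0.0353), and no neighbours in it overlapped at these lengths. Over the longest transcripts *Trpm6* was above *Trpm7* in S5 and S7 and below it in S6 and S8, so their order in KO samples depends on the length used. The order of *Magt1* and *Trpm7* in WT samples depends on it as well. The longest transcript of *Trpm7* has 7107 bases against 11315 bases of exon, and that of *Magt1* 4531 against 4672. Over the longest transcripts *Trpm7* would stand above *Magt1* in WT samples.

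The other members of the TRP superfamily were mostly silent. Of the 28 TRP channel genes listed, 12 had no count in any sample, among them *Trpm3*, *Trpm8*, *Trpv1*, *Trpv3*, *Trpv5* and *Trpv6*, the last pair being calcium channels that accompany TRPM6 in the kidney. A further 6 had counts but fell under the filter, and none of them exceeded 1.38 CPM in a sample. Besides the 5 described above, 5 TRP genes were tested, and 1 of these was called higher and 0 lower by edgeR (2.91% and 1.99% of all genes). At an unadjusted p under 0.05, 2 were higher and 1 lower, and DESeq2 called 2 higher and 0 lower.

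The gene called was *Mcoln2*, which encodes the endosomal and lysosomal cation channel TRPML2 of immune cells. It was at 5.06, 4.14, 4.81 and 5.86 CPM in S1 to S4 and at 29.3, 22.6, 22.8 and 18.0 CPM in S5 to S8. *Mcoln2* rose by a log2 fold change of 2.22 (SE 0.22, adjusted p = 5.23e-06 from edgeR), kept its call when any sample was left out, and lost it with the myeloid covariate, where the log2 fold change was 2.55. Its neighbour in the family, *Mcoln3*, was at 0, 1.25, 0.408 and 1.24 CPM in WT and at 3.02, 9.54, 4.84 and 7.25 CPM in KO samples (log2 fold change 3.08, SE 0.73, edgeR adjusted p = 0.0106). That value missed the threshold of 0.01 and passed it without S1 or S5. *Mcoln1*, the family member of lysosomes in all tissues, was at 16.95 to 26.8 CPM in WT and 14.8 to 20.4 CPM in KO samples (log2 fold change -0.30, SE 0.19, edgeR adjusted p = 0.353).

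*Pkd2*, which encodes the polycystin channel of primary cilia and the endoplasmic reticulum, was at 4.53, 4.96, 4.98 and 3.71 CPM in S1 to S4, at 3.74 CPM in S5, and at 0, 0.167 and 0.0703 CPM in S6 to S8. S5 thus stood with the WT samples, and the log2 fold change of -2.19 (SE 0.96, edgeR adjusted p = 0.169) passed the thresholds only when S5 was left out. *Trpc1*, a subunit of receptor-operated channels, was at 6.35 to 9.05 CPM in WT and 5.66 to 13.2 CPM in KO samples (log2 fold change 0.40, SE 0.29, edgeR adjusted p = 0.45).

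Magnesium also crosses membranes through other carriers, and 2 of them were higher in KO cells. Of 17 magnesium transporter genes other than *Magt1*, 13 were tested, 2 were called higher and 0 lower by edgeR (2.91% and 1.99% of all genes). At an unadjusted p under 0.05, 3 were higher and 1 lower, and DESeq2 called the same 2 higher and *Cnnm3* lower. *Slc41a1*, which encodes a sodium-magnesium exchanger of the plasma membrane, was at 41.0, 44.0, 35.4 and 36.5 CPM in S1 to S4 and at 57.5, 57.9, 69.4 and 59.8 CPM in S5 to S8. Its log2 fold change was 0.64 (SE 0.13, edgeR adjusted p = 0.00315). *Slc41a2*, a relative of it, was at 9.30, 7.74, 11.02 and 5.69 CPM in S1 to S4 and at 24.9, 17.1, 17.03 and 15.2 CPM in S5 to S8. Its log2 fold change was 1.14 (SE 0.24, edgeR adjusted p = 0.00529). The KO samples were above the WT samples for both genes, but neither call was firm. *Slc41a1* lost it without S3, S4 or S7 and *Slc41a2* without S1, S2, S4, S5, S6 or S7, and both lost it with the myeloid covariate, where the log2 fold change was 0.22 for *Slc41a1* and 1.97 for *Slc41a2*. The range of fitted values without a sample was 0.57 to 0.70 for *Slc41a1* and 0.96 to 1.28 for *Slc41a2*.

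*Nipal3*, with the highest level per length of the list (16.96 RPKM over all samples), was at 104 to 127 CPM in WT and 136 to 153 CPM in KO samples (log2 fold change 0.37, SE 0.099, edgeR adjusted p = 0.0236). *Cnnm3*, of the CNNM family linked to magnesium efflux, was at 28.4 to 42.8 CPM in WT and 15.2 to 24.1 CPM in KO samples (log2 fold change -0.76, SE 0.19, edgeR adjusted p = 0.0142), which missed the threshold of 0.01. *Mrs2*, the magnesium channel of mitochondria, was at 65.3 to 66.8 CPM in WT and 62.4 to 66.6 CPM in KO samples (log2 fold change -0.04, SE 0.10, edgeR adjusted p = 0.86). The median log2 fold change of the 14 tested genes of the list was 0.08.

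**Figure D3:**
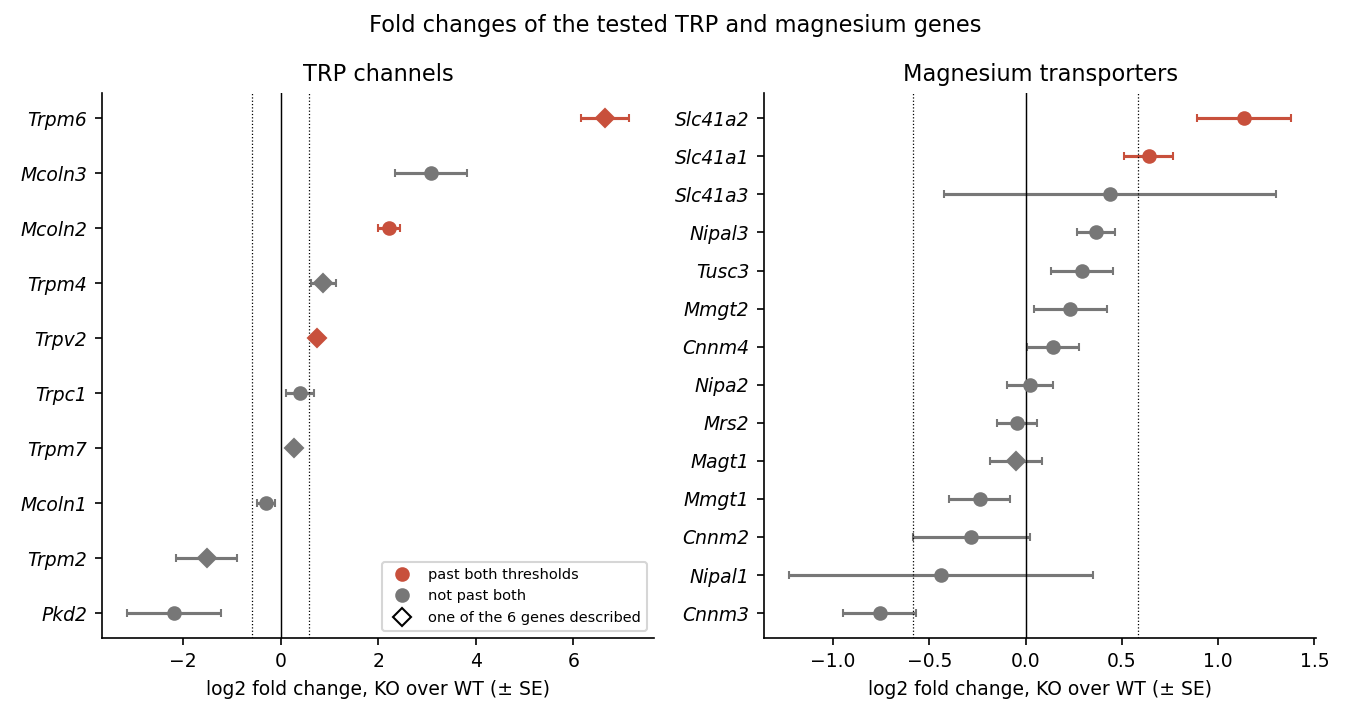
Log2 fold change of KO over WT (horizontal axis, with SE; the dotted lines mark a fold of 1.5) for the 10 tested TRP channel genes (left) and the 14 tested magnesium transporter genes (right), in red where past both thresholds and as diamonds for the 6 genes described first. *Trpm6* stands alone at 6.65, *Mcoln2* is at 2.22, and in the right panel *Slc41a1* and *Slc41a2* are past the thresholds.

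For genes of proteins that act on or below these channels, calls are given beside 2.91% of all genes called higher and 1.99% lower. Of 6 substrates listed for the TRPM7 kinase, 5 were tested and *Anxa1*, for the phospholipid-binding protein annexin A1, was called, as higher. It was at 3.75 to 4.74 CPM in WT and 59.8 to 94.0 CPM in KO samples (log2 fold change 4.17, SE 0.18, adjusted p = 5.25e-10 from edgeR), and it kept its call in every alternative fit, the myeloid covariate included. *Myh9*, the heavy chain of nonmuscle myosin and another substrate, was at 1837 to 1909 CPM in WT and 1538 to 1992 CPM in KO samples (log2 fold change -0.06, SE 0.094, edgeR adjusted p = 0.746). *Smad2* was at 44.6 to 59.6 CPM in WT and 46.1 to 57.1 CPM in KO samples (log2 fold change -0.01, SE 0.13, edgeR adjusted p = 0.973).

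Of 9 modulators of TRPM6 and of CNNM proteins, 8 were tested and edgeR called 0. At an unadjusted p under 0.05, 0 were higher and 4 lower, and DESeq2 called *Ptp4a3* lower. *Egfr*, whose product raises TRPM6 activity in the kidney, had no count in any sample, and its ligand gene *Egf* was at 0.164 to 4.08 CPM in WT and 0.566 to 1.27 CPM in KO samples. *Rack1*, for a protein that binds the TRPM6 kinase, was at 587 to 776 CPM in WT and 555 to 626 CPM in KO samples (log2 fold change -0.18, SE 0.097, edgeR adjusted p = 0.277). *Ptp4a2*, for a phosphatase that binds CNNM proteins, was at 356 to 386 CPM in WT and 323 to 333 CPM in KO samples (log2 fold change -0.18, SE 0.084, edgeR adjusted p = 0.191), and *Phb2* had a log2 fold change of -0.31 (SE 0.12, edgeR adjusted p = 0.106).

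Calcium entry and the potassium channels that sustain it belong to the same ion balance. Calls in these lists also stand beside 2.91% of all genes called higher and 1.99% lower. Of 8 genes of store-operated calcium entry, *Itpr1*, a calcium release channel of the endoplasmic reticulum, was called higher, at 229 to 288 CPM in WT and 378 to 494 CPM in KO samples (log2 fold change 0.79, SE 0.11, adjusted p = 0.000127 from edgeR). *Orai1*, the pore of the calcium release-activated channel, was at 40.1 to 51.1 CPM in WT and 38.0 to 51.8 CPM in KO samples (log2 fold change -0.09, SE 0.14, edgeR adjusted p = 0.766), and *Itpr3* had a log2 fold change of 0.11 (SE 0.14, edgeR adjusted p = 0.702). Of 4 potassium channels of T cells, *Kcna3*, a voltage-gated potassium channel of effector T cells, was called higher, at 55.1 to 77.5 CPM in WT and 101 to 124 CPM in KO samples (log2 fold change 0.86, SE 0.13, adjusted p = 0.000219 from edgeR). *Kcnn4*, the calcium-activated channel, was at 58.7 to 73.4 CPM in WT and 68.1 to 92.8 CPM in KO samples (log2 fold change 0.23, SE 0.12, edgeR adjusted p = 0.256), and *Kcnk5* had a log2 fold change of -0.12 (SE 0.17, edgeR adjusted p = 0.737). *Itpr1* and *Kcna3* kept their calls when any sample was left out and lost them with the myeloid covariate, where the log2 fold changes were 0.75 and 1.31.

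MAGT1 is a subunit of the oligosaccharyltransferase, which attaches sugar chains to proteins in the endoplasmic reticulum. All 11 other genes listed for this enzyme complex in its different forms were tested, and edgeR called 0, as did DESeq2, while at an unadjusted p under 0.05 there were 0 higher and 3 lower. *Stt3b* was at 101 to 109 CPM in WT and 69.3 to 93.6 CPM in KO samples (log2 fold change -0.38, SE 0.11, edgeR adjusted p = 0.035). *Ddost* was at 68.6 to 97.9 CPM in WT and 57.2 to 67.2 CPM in KO samples (log2 fold change -0.41, SE 0.13, edgeR adjusted p = 0.0468), *Ost4* had a log2 fold change of -0.32 (SE 0.16, edgeR adjusted p = 0.227) and *Krtcap2* one of 0.19 (SE 0.15, edgeR adjusted p = 0.516). *Tusc3*, whose product takes the place of MAGT1 in the complex, was at 16.99 to 21.7 CPM in WT and 22.8 to 26.1 CPM in KO samples (log2 fold change 0.29, SE 0.16, edgeR adjusted p = 0.284). Of 10 genes that make or remove ADP-ribose, the ligand of TRPM2, 8 were tested, and neither edgeR nor DESeq2 called any (0, with 0 also at an unadjusted p under 0.05). *Parg*, *Nudt9* and *Parp1*, the highest of them per length, had log2 fold changes of -0.10 (SE 0.13), 0.24 (SE 0.20) and -0.26 (SE 0.14).

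The genes beside *Trpm6* showed no step of its size. Of 13 annotated genes within 500 kb of its ends, 5 were tested, all on the upstream side, and 4 had no count in any sample. *Nmrk1*, 97.6 kb upstream and coding for a kinase of NAD synthesis, was at 48.6, 30.4, 37.3 and 38.6 CPM in S1 to S4 and at 83.1, 77.7, 61.9 and 48.3 CPM in S5 to S8 (log2 fold change 0.81, SE 0.18, edgeR adjusted p = 0.00594). *D030056L22Rik*, 31.6 kb upstream, was at 17.2, 16.7, 17.4 and 16.3 CPM in S1 to S4 and at 21.9, 30.5, 31.4 and 28.2 CPM in S5 to S8 (log2 fold change 0.73, SE 0.17, edgeR adjusted p = 0.00888). Both were called higher, beside 2.91% of all genes, and S8 of *Nmrk1* lay within the WT range. *Nmrk1* lost its call without S2, S3, S4, S5, S6 or S7, and *D030056L22Rik* lost it without each sample other than S5. Without S2, S3, S4, S6 or S7, 0 of the 5 neighbours were called by edgeR, with 2 to 4 at an unadjusted p under 0.05.

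*Carnmt1*, 42.8 kb upstream and coding for a carnosine methyltransferase, was at 11.9 to 19.2 CPM in WT and 19.4 to 27.6 CPM in KO samples (log2 fold change 0.54, SE 0.20, edgeR adjusted p = 0.0902). *Ostf1*, 118 kb upstream, was at 124 to 146 CPM in WT and 144 to 169 CPM in KO samples (log2 fold change 0.25, SE 0.098, edgeR adjusted p = 0.111), and the small RNA gene *Gm23238*, at most 2.495 CPM, had a log2 fold change of 1.03 (SE 0.80, edgeR adjusted p = 0.486). On the downstream side *Rorb*, 38.1 kb away and coding for a nuclear receptor of the retina and brain, was at most 1.33 CPM in any sample.

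**Figure D4:**
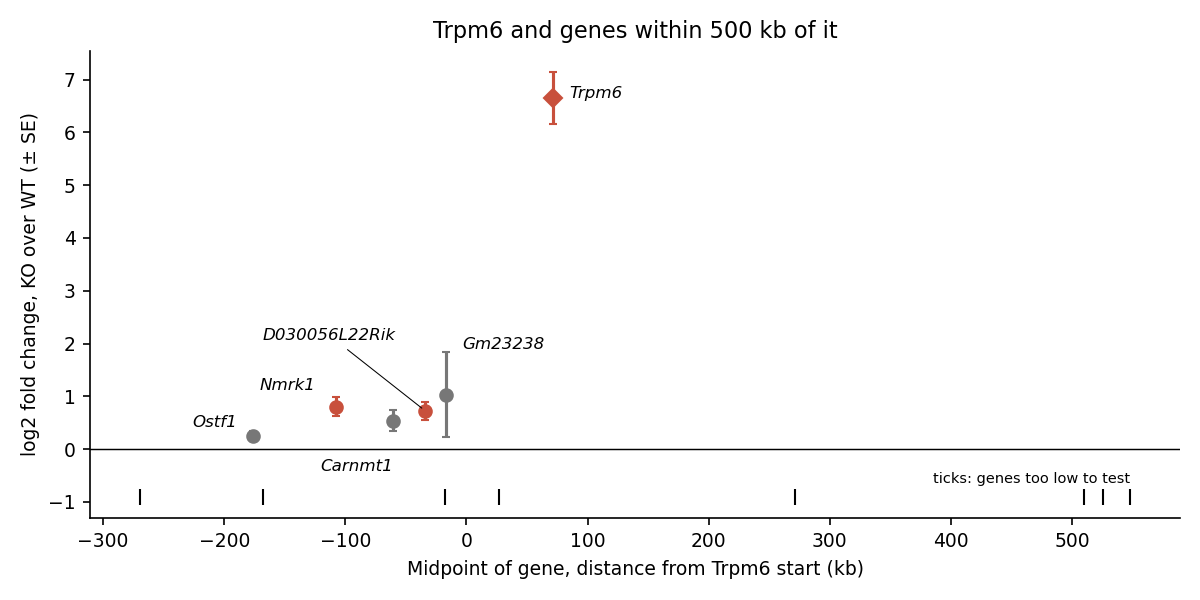
Log2 fold change of KO over WT (vertical axis, with SE) of *Trpm6* (diamond) and of the genes within 500 kb of it, against the distance of each gene's midpoint from the *Trpm6* start in kb. Red marks the genes past both thresholds and ticks the 8 genes too low to test; the 5 tested neighbours lie between 0.25 and 1.03, against 6.65 for *Trpm6*.

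The genes most like *Trpm6* in their pattern over the 8 samples were sought by the mean absolute difference of log2 CPM, after each gene's own mean was taken away. The 5 nearest were *Cd109* (1.14 log2 units), *Tmeff2* (1.45), *Gm2792* (1.47), *Stac2* (1.51) and *Dnajc6* (1.54), where the median over all tested genes was 3.74. They lie on chromosomes 9, 1, 17, 11 and 4, none on that of *Trpm6*. *Cd109*, for a surface protein that binds TGF-β, was at 0.291, 1.25, 0.245 and 0.825 CPM in S1 to S4 and at 45.3, 53.7, 31.6 and 21.9 CPM in S5 to S8. *Stac2*, for an adaptor of voltage-gated calcium channels, was at 1.63, 0.926, 1.06 and 1.57 CPM in S1 to S4 and at 28.9, 44.6, 41.2 and 57.6 CPM in S5 to S8. In both, as in *Trpm6*, every KO sample was above 20 CPM and every WT sample below 5 CPM.

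The other 3 were rarer. *Tmeff2* had 1 count over the WT samples and 406 over the KO samples, a ratio of 358 per scaled library size (exact 95% counting interval 63.9 to 14170). *Gm2792* had 6 counts over the WT samples, all of them in S4, and 278 over the KO samples, a ratio of 40.8 (18.5 to 112). *Dnajc6*, for an auxilin that uncoats clathrin vesicles, had 0 counts over the WT samples and 289 over the KO samples, which is at least 84.9-fold higher if 3 counts over the WT group are taken as the limit, and 68.6-fold at the lower end of the exact 95% counting interval. These intervals and limits cover counting error only. For *Trpm6* the same ratio, of 10150 counts to 87, was 103 (83.3 to 128). The likeness is a description over 8 samples that fall into 2 groups.

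**Figure D5:**
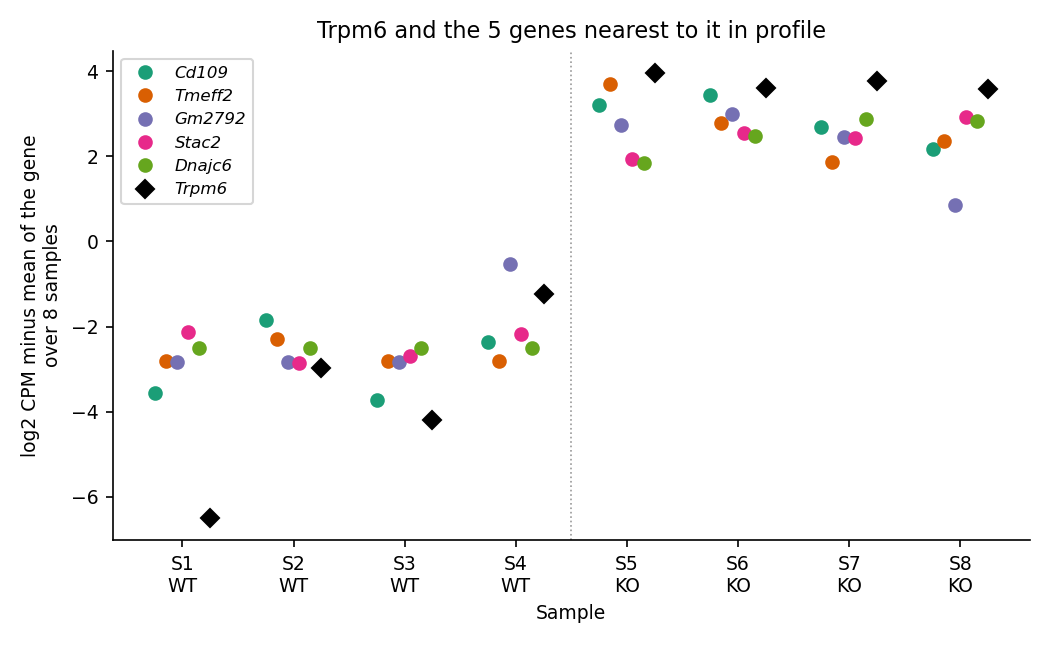
Log2 CPM of *Trpm6* (black diamonds) and of the 5 genes nearest to it (colored points) in each of the 8 samples, as the difference from the gene's own mean (vertical axis, log2 units). All 6 lie below their mean in S1 to S4 and above it in S5 to S8, and *Trpm6* has the widest range, with S1 lowest and S4 highest of its WT samples. A count of 0 stands at -3 log2 CPM for every gene before its mean is taken away, which narrows the range of rarer genes. Fitted log2 fold changes were higher than the 6.65 of *Trpm6* for *Dnajc6* (9.05, SE 1.11) and *Tmeff2* (7.99, SE 0.87). They were lower for *Cd109* (5.80), *Gm2792* (5.37) and *Stac2* (5.06).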

How the data were processed

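RNA-seq of 8 samples was used. Per the methods, the authors mapped read pairs to GRCm38 with STAR and assigned them to GENCODE M23 genes with featureCounts, and the deposited table holds raw counts, neither normalized nor pooled. Reads are 43 and 42 bases long in the methods and 75 in the series design, and whether the counting used the strand is not given in the sources used here. The study's principal component plot names the WT and KO columns, which could not be matched to replicate numbers, and 0 columns were left unused.

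Counts were filtered with filterByExpr, scaled with TMM factors and tested with the quasi-likelihood test of edgeR 4.0.16 in R 4.3.3 on genotype alone. A gene was called at a fold over 1.5 together with an adjusted p (Benjamini-Hochberg, 15378 genes) below 0.01. The study itself used DESeq2 with a GC correction. The fit was tested on simulated data. The SE is the absolute log2 fold change over the root of the quasi-likelihood F. RPKM are TMM-scaled CPM per kilobase of the exon union in GENCODE M21, which holds 55154 of the 55335 gene IDs. Log2 CPM used a prior count of 2. Promoters come from RefSeq.

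The 6 genes and all lists were chosen with earlier results of these data known. Genes named are the 6, *Kdm1a*, genes of the pathway lists past the thresholds and the 3 highest per length of each, markers that were called (of the myeloid ones, examples) or at 0, tested genes within 500 kb of *Trpm6* and the 5 profiles nearest to it, to which *Cnnm3*, *Mrs2*, *Tusc3*, *Stt3b*, *Egfr*, *Egf*, *Rorb*, *Cd3g*, *Cd8b1*, *Cdh1*, *Kit* and silent genes were added once their values had been seen. Alternatives were DESeq2 size factors, library size alone, no filter beyond 1 count, DESeq2 1.42.0, GC and length offsets (mgcv 1.9.3), the myeloid score as a covariate, an adjusted p of 0.05, and leaving out each sample.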

Additional observations from a re-analysis of the deposited data

Results flagged for a closer look

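In 43 groups of 4 samples, each gene's highest or lowest log2 CPM was compared with its nearest neighbour by Dixon's ratio. In 5 cases the ratio was above its 95% critical value, where chance gives about 1 in 20 groups, or 2.15. *Trpm4* in S5 (KO) had a ratio of 0.88, being above the other KO samples. *Kcna3* in S8 (KO) had a ratio of 0.933 and was below the other KO samples. *Itpr1* in S1 (WT) had a ratio of 0.8505 and was above the other WT samples. *Gm2792* in S4 (WT) and *Tmeff2* in S2 (WT) had a ratio of 1.0, each being the only WT sample with a count.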

How the results depend on the processing

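The log2 fold change of *Trpm6* was 6.56 to 6.77 under the alternatives with all samples and 6.18 to 7.91 when a sample was left out, and it passed the thresholds in all of these except with the myeloid covariate (6.77). The score of the WT samples did not overlap that of the KO samples, so it and the genotype cannot be told apart, and with it 23 genes were higher and 0 lower by edgeR (632 lower at an unadjusted p under 0.05). With it, 0 other TRP genes (1 at an unadjusted p under 0.05), 0 other magnesium transporters (2) and 0 neighbours of *Trpm6* (2) were called. At an adjusted p of 0.05, 695 genes were higher and 551 lower, with no filter 531 were lower, and with DESeq2 461 were lower. Other TRP genes called numbered 2 with library size alone, no filter, DESeq2 or an adjusted p of 0.05, *Mcoln3* being the second, and neighbours called numbered 1 with library size alone. Leaving out a sample gave 347 to 452 higher and 199 to 303 lower genes, the lowest without S2, with 1 to 3 other TRP genes, 0 to 2 magnesium transporters (0 without S4 or S7, with 4 at an unadjusted p under 0.05) and 0 to 1 neighbours of *Trpm6*. The ratio of *Trpm6* to *Trpm7* per length in KO samples was 1.41 on average and 1.05 over the longest transcripts. The cause of these shifts was not tested. No paired analysis was possible because the columns carry no replicate numbers. At 0.106 to 0.25 CPM for 3 counts, levels of *Trpm6* in S1 and of the silent TRP genes cannot be told from absence.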
